A study of Mus musculus with 6 samples.

Results

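Aminoacyl-tRNA synthetases are the enzymes that join each amino acid to its tRNA. The 38 genes described here were taken by symbol from a comparison of mouse embryonic stem (ES) cells that carry 1 working copy of Tex19.1 or none, and all 38 were present among the 10128 genes of that comparison. They comprise 20 genes of cytosolic enzymes, 16 genes of mitochondrial enzymes, whose symbols end in 2, and the scaffold genes Aimp1 and Aimp2. Aimp2 also ends in 2, but its product belongs to the cytosol, so both scaffolds are treated apart. RNA sequencing was done on 3 libraries of Tex19.1+/- and 3 of Tex19.1-/- ES cells, both derived from the E14Tg2a line of strain background 129/Ola, at passages 12 to 18, grown on gelatin in serum with medium conditioned with leukaemia inhibitory factor. The heterozygous control also carries 1 disrupted copy of Tex19.1. The labels do not say whether the 3 libraries of a genotype came from separate clones or cultures, so the p-values measure the spread between these libraries, which may be technical.

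Most synthetases recognise 1 amino acid and its tRNAs, activate the amino acid with ATP and transfer it to the tRNA. An elongation factor then takes the charged tRNA to the ribosome. The cytosol and the mitochondrion translate separate sets of messages, and for most amino acids a separate nuclear gene makes the enzyme of each compartment. Several cytosolic enzymes are held together with 3 scaffold proteins in the multisynthetase complex, and many cytosolic synthetase genes are known to be induced by ATF4, the transcription factor of the amino acid response. The enzymes also fall into class I and class II, which differ in the fold of the catalytic domain. No value per library was used here, so each gene has 1 log2 fold change, a mean level in CPM (read counts scaled to the size of the library) and a p-value, all from the authors' deposited table. A gene was called changed where the adjusted p there was under 0.05. A value above 0 is taken to mean a higher level in Tex19.1-/- cells, because Tex19.1 itself stood at -6.92 in the authors' deposited table, so that gene is no independent check of the labels. As a measure of error, a standard error was computed for each gene from its fold change and p-value and is called the implied standard error.

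All 8 ES cell markers examined were present, at means of 192 to 1566 CPM, with 3 higher and 2 lower. Of 9 endoderm markers, 7 were present at 7.38 to 122 CPM and all 7 fell, with a median log2 fold change of -2.08, while Sox17 and Foxa2 were not among the genes listed. Of 8 fibroblast and feeder markers 3 were listed, of which 1 rose and 2 fell, of 5 neuroectoderm markers 4 rose and 1 fell, and of 5 trophoblast markers 2 were listed and 1 rose. In bulk RNA, fewer cells of a type and less RNA per cell cannot be told apart. The part of these cell type differences in the synthetase values was not tested.

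Synthetase genes did not move as a block between the genotypes. Of the 38 genes 15 changed, which is 39.5%, against 51.7% of all genes in the authors' deposited table. Higher levels in Tex19.1-/- cells were called for 9 of them and lower levels for 6, against 25.2% and 26.5% of all genes. The median log2 fold change of the 38 was -0.01 and that of all genes 0.00. Differences were small: 31 of the 38 genes, or 81.6%, lay within 0.2 of 0 on the log2 scale in the authors' deposited table, compared with 70.8% of all genes, and 7 of 38, or 18.4%, were both called and at least 0.2 in size, compared with 29.2% of all genes. The strongest fall was that of Lars2, to 68.6% of the heterozygous level, and the strongest rise that of Ears2, to 119%.

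**Figure D1:**
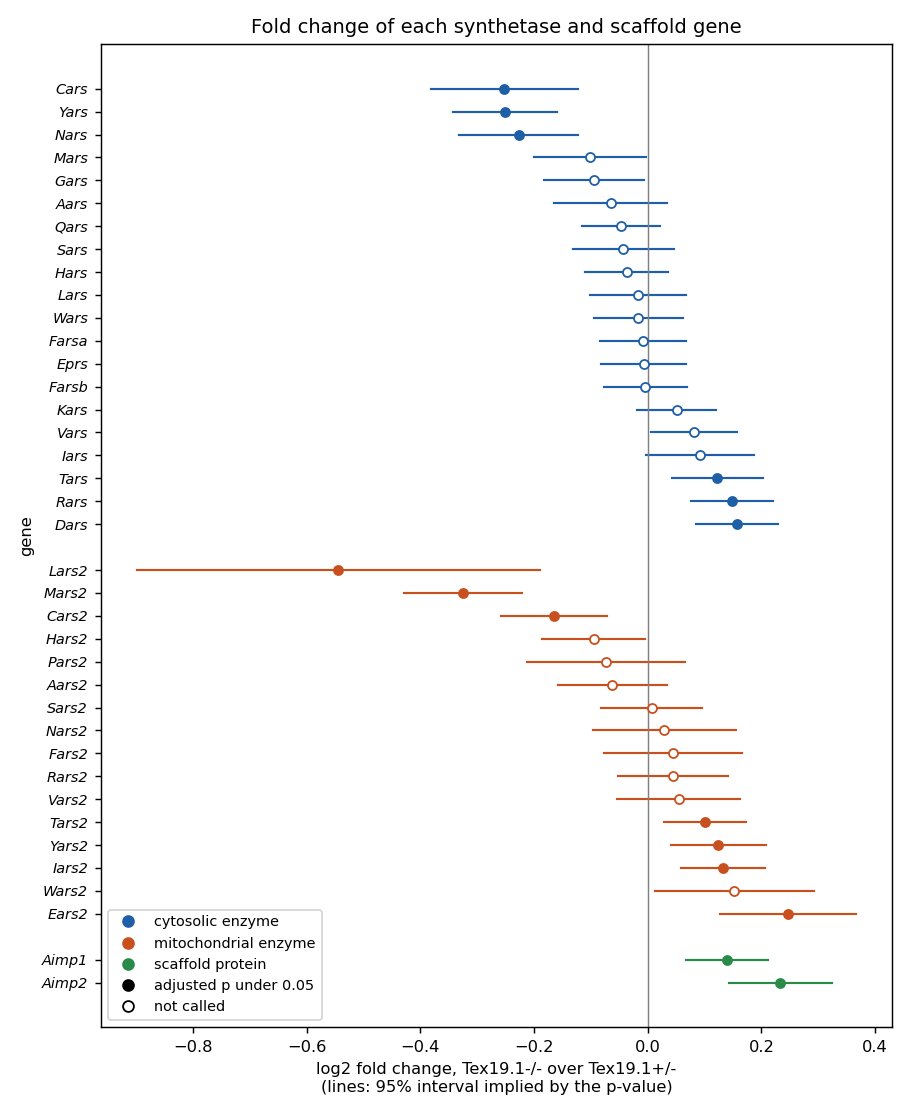
Log2 fold change of Tex19.1-/- over Tex19.1+/- cells (horizontal axis) for each of the 38 genes (vertical axis), ordered within cytosolic enzymes (blue), mitochondrial enzymes (orange) and scaffold proteins (green). Filled points are called at an adjusted p under 0.05, and lines are the 95% intervals implied by the p-values; most points lie within 0.2 of 0, and Lars2 has the widest line.

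The genes that were not called were bounded closely, as far as the spread between these libraries goes, which may be technical. For 21 of these 23 genes both bounds of the 95% interval implied by the p-value lay within 0.2 of 0 on the log2 scale. The exceptions were Wars2, with an upper bound of 0.29, and Pars2, with a lower bound of -0.21. Apart from Lars2, implied standard errors ran from 0.035 to 0.072 over the members. They were larger for genes of low CPM, with a median of 0.040 over the cytosolic and 0.051 over the mitochondrial genes.

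The cytosolic enzyme genes that were called were split evenly between rises and falls. Of 20, 3 rose and 3 fell, so that 30% were called, against 51.7% of all genes. Called or not, 14 of the 20 lay below 0 and 6 above. The median log2 fold change of the 20 was -0.02 with a range from -0.25 to 0.16 in the authors' deposited table. The falls were in the enzymes for cysteine, tyrosine and asparagine, and the rises in those for aspartate, arginine and threonine. None of these 6 genes reached a change of 1.2-fold in the authors' deposited table.

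In the authors' deposited table, Cars, which charges tRNA with cysteine, was at -0.25 (adjusted p = 0.000442) and had a mean of 117 CPM. Its implied standard error of 0.066 was the highest of the cytosolic enzymes. Yars, the tyrosine enzyme, lies on chromosome 4 from 129189760 to 129219607 (GRCm38, plus strand, ENSMUSG00000028811.11) and, per the authors' deposited table, was also at -0.25 (adjusted p = 3.88e-07), or 84.0% of the heterozygous level. Its implied standard error was 0.047. The authors' deposited table places Nars, the asparagine enzyme, at -0.23 (adjusted p = 8.19e-05) with a mean of 289.9 CPM. The 3 falls were thus of nearly equal size but of unequal precision. The 20 measured genes that flank Nars, 10 on each side, had a median of -0.13 in the authors' deposited table, against -0.03 around Cars and -0.01 around Yars. The part of the neighbourhood in the value of Nars was not tested.

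Among the rises, Dars, the aspartate enzyme, was at 0.16 (adjusted p = 7.91e-05) per the authors' deposited table, which is 111% of the heterozygous level. The authors' deposited table places Rars, the arginine enzyme, at 0.15 (adjusted p = 0.000189), and the genes that flank it had a median of 0.13. Per the authors' deposited table, Tars, the threonine enzyme, was at 0.12 (adjusted p = 0.00616), with a median of 0.11 over its flanking genes. For Rars and Tars the fold change was thus close to that of their neighbours on chromosomes 11 and 15, whose part was not tested, whereas the genes around Dars had a median of -0.05.

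The other 14 cytosolic enzyme genes were not called. Eprs, whose bifunctional product charges tRNAs for glutamate and proline, had a mean of 347 CPM and stood at -0.01 on the log2 scale in the authors' deposited table. Farsa and Farsb, which encode the alpha and beta subunits of the phenylalanine enzyme, were listed at -0.01 and 0.00 in the authors' deposited table. Next to these, Wars, Lars, Hars, Sars, Qars and Aars, for tryptophan, leucine, histidine, serine, glutamine and alanine, lay between -0.06 and -0.02 in the authors' deposited table. Gars at -0.10 and Kars at 0.05 in the authors' deposited table encode the glycine and lysine enzymes of both compartments. Mars, for methionine, was at -0.10, Vars, for valine, at 0.08 and Iars, for isoleucine, at 0.09 in the authors' deposited table. Of these, Mars, Gars and Vars had an unadjusted p under 0.05, and Gars and Vars passed the adjusted threshold once a trend on GC content and transcript length was removed (adjusted p = 0.0392 and 0.0178).

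Of the genes of the multisynthetase complex both scaffolds rose, and the enzymes lay around 0. Its 10 genes here are Dars, Eprs, Iars, Kars, Lars, Mars, Qars, Rars and the scaffolds Aimp1 and Aimp2; 4 rose and none was called lower, 40% in all against 51.7% of all genes, of which 25.2% were higher. Of the 10 genes 6 lay above 0 and 4 below, and the median on the log2 scale was 0.07 in the authors' deposited table. Of the 8 enzymes among them 2 rose, 4 lay above 0 and 4 below, and the median was 0.02, while of the 12 cytosolic enzymes outside the complex 1 rose and 3 fell, with a median of -0.04. Whether the complex differs from the other enzymes was not tested. Of the scaffold genes, Aimp2, on chromosome 5 from 143902704 to 143909847 (minus strand, ENSMUSG00000029610.13), was at 0.23 (adjusted p = 2.06e-06) per the authors' deposited table, which is 118% of the heterozygous level. Of its exonic bases 29.4% are shared on the opposite strand with Eif2ak1, which encodes a kinase of the initiation factor eIF2; the authors' deposited table lists Eif2ak1 at -0.02 (adjusted p = 0.729). The libraries were stranded, but the strand setting of the counting is not given in the sources used here. Per the authors' deposited table, Aimp1, whose product binds the arginine enzyme, was at 0.14 (adjusted p = 0.000495), and once the GC and length trend was removed it was at 0.08 and did not pass (adjusted p = 0.0698). Eef1e1, the gene of the third scaffold, was chosen after its value was seen; the authors' deposited table lists it at 0.04 (adjusted p = 0.380).

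Promoters of the cytosolic genes are shown because many of them are known ATF4 targets and the RNA of Atf4 itself was lower. These data hold no measure of ATF4 protein. The motif TGATGNAA, an element that ATF4 binds with C/EBP partners, was searched on both strands in RefSeq promoters (GRCm38.p6, 250 bases before to 50 after the start). Promoters were found for 29 of the 38 genes. The motif was present in 5 of 13 cytosolic genes and in none of 14 mitochondrial or the 2 scaffold genes. Over the whole table it was present in 1219 of 27025 genes, or 4.51%, and in 3.97% of the 32851 promoters. All 5 belong to the 13 genes listed as known ATF4 targets, of which 8 had a promoter. The 30 bases around the match of 4 of them follow, 5′ to 3′ on the strand of the gene, with the motif or its reverse complement in capitals.
Yars chr4:129189906-129189913 (plus strand): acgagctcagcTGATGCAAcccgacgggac
Tars chr15:11399666-11399673 (minus strand): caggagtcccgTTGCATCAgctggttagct
Iars chr13:49682137-49682144 (plus strand): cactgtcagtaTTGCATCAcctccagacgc
Gars chr6:55037971-55037978 (plus strand): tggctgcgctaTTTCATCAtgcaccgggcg

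The 4 genes shown did not share a direction. Yars fell and Tars rose, while Gars at -0.10 and Iars at 0.09 in the authors' deposited table were not called. The matches of Yars, Tars and Iars read TGATGCAA, and that of Gars reads TGATGAAA. The same 8 letters stood in the promoters of a gene that fell and of a gene that rose, and their part in either change was not tested. Both full promoters, chr4:129189653-129189952 for Yars and chr15:11399609-11399908 for Tars, are given with the motif in capitals, 5′ to 3′ on the strand of the gene. A match is a description of these letters and not evidence of binding.
Yars promoter (plus strand): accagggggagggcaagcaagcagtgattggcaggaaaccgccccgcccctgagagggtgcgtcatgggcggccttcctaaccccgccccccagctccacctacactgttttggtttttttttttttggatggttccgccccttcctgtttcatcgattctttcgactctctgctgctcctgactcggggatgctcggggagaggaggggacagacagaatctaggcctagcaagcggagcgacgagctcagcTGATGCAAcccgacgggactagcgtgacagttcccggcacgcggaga
Tars promoter (minus strand): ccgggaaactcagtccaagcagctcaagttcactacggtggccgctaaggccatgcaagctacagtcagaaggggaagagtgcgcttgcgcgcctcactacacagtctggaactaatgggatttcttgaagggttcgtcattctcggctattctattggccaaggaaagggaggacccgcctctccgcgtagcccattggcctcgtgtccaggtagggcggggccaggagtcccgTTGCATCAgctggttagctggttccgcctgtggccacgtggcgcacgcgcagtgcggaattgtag

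Over all 13 cytosolic genes listed as known ATF4 targets, Cars, Nars and Yars fell, Tars rose and 9 were not called, and the median on the log2 scale was -0.04 in the authors' deposited table. The 7 other cytosolic genes had 2 rises, Dars and Rars, and a median of 0.00. In both lists the share of genes called, 30.8% and 28.6%, was below the 51.7% of all genes. The lists come from general knowledge of the pathway and were written with results of these data known.

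Mitochondrial enzyme genes included both the strongest falls and the strongest rise. Of 16, 4 rose and 3 fell, so that 43.8% were called, against 51.7% of all genes, and their median log2 fold change was 0.04 with a range from -0.54 to 0.25 in the authors' deposited table. Of the 9 class I enzymes among them 6 were called, and of the 7 class II enzymes Tars2 was the one called. In the cytosol 3 of 10 enzymes of either class were called. The difference between compartments or classes was not tested.

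Mars2, the mitochondrial methionine enzyme, lies on chromosome 1 from 55237177 to 55248470 (plus strand, ENSMUSG00000046994.9) and fell to 79.8% of the heterozygous level, which the authors' deposited table gives as -0.33 on the log2 scale (adjusted p = 5.75e-09), at 21.3 CPM. The genes around Mars2 had a median of 0.05. The authors' deposited table lists Cars2, the cysteine enzyme, at -0.17 (adjusted p = 0.00156). Of the rises, Ears2, the glutamate enzyme, on chromosome 7 from 122037213 to 122067263 (minus strand, ENSMUSG00000030871.11), was at 0.25 (adjusted p = 0.000198) with 13.9 CPM in the authors' deposited table. The authors' deposited table lists Iars2, for isoleucine, at 0.13 (adjusted p = 0.00141). It shares 22.9% of its exonic bases on the opposite strand with Rab3gap2, which was at 0.01 (adjusted p = 0.915) there. The authors' deposited table lists Yars2, for tyrosine, at 0.12 (adjusted p = 0.0089) and Tars2, for threonine, at 0.10 (adjusted p = 0.0154).

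Among the 9 mitochondrial genes that were not called, Wars2, for tryptophan, had the highest value, 0.15, and the lowest mean CPM of all members, 10.1 without scaling for length, in the authors' deposited table. Removal of the GC and length trend brought Wars2 past the threshold (adjusted p = 0.0430). Hars2, for histidine, had the lowest value, -0.09, in the authors' deposited table. Wars2 and Hars2 had an unadjusted p under 0.05. Vars2, Rars2, Fars2, Nars2 and Sars2, for valine, arginine, phenylalanine, asparagine and serine, lay between 0.01 and 0.05, and Aars2 and Pars2, for alanine and proline, at -0.06 and -0.07 in the authors' deposited table.

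**Figure D2:**
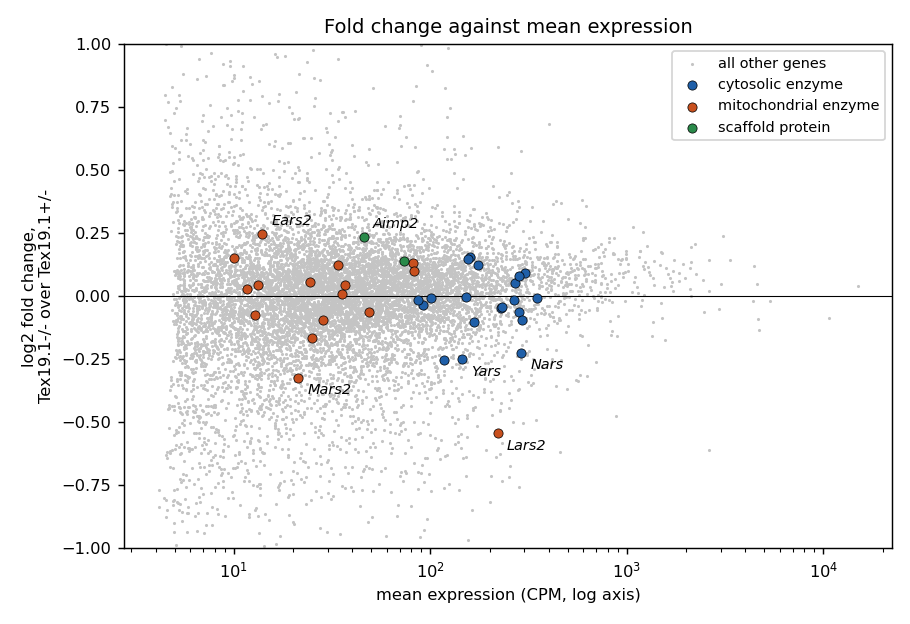
Log2 fold change of Tex19.1-/- over Tex19.1+/- cells (vertical axis) against mean CPM (log axis) for all genes in grey and the cytosolic (blue), mitochondrial (orange) and scaffold (green) genes. The 148 genes beyond 1 in size are not drawn; the members lie within the cloud of other genes, and Lars2 stands lowest among them.

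Lars2, the mitochondrial leucine enzyme, had the strongest fall and the largest error. The gene lies on chromosome 9 from 123366927 to 123462666 (plus strand, ENSMUSG00000035202.8) and, per the authors' deposited table, was at -0.54 (adjusted p = 0.00667), with a 95% interval implied by the p-value from -0.90 to -0.19. Its implied standard error of 0.18 was 4.84 times the median of the 300 genes of nearest expression, 0.037, none of which reached it. Among 5010 genes of at least 32 CPM whose p-value allowed the computation, Lars2 ranked first by this error. The next was a gene listed under the clone name RP23-81C12.3, chosen after its value was seen, which the authors' deposited table lists at -0.32 (adjusted p = 0.127) and 628 CPM, with an implied standard error of 0.18. Since no value per library was used here, which libraries differ in Lars2 was not tested.

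**Figure D3:**
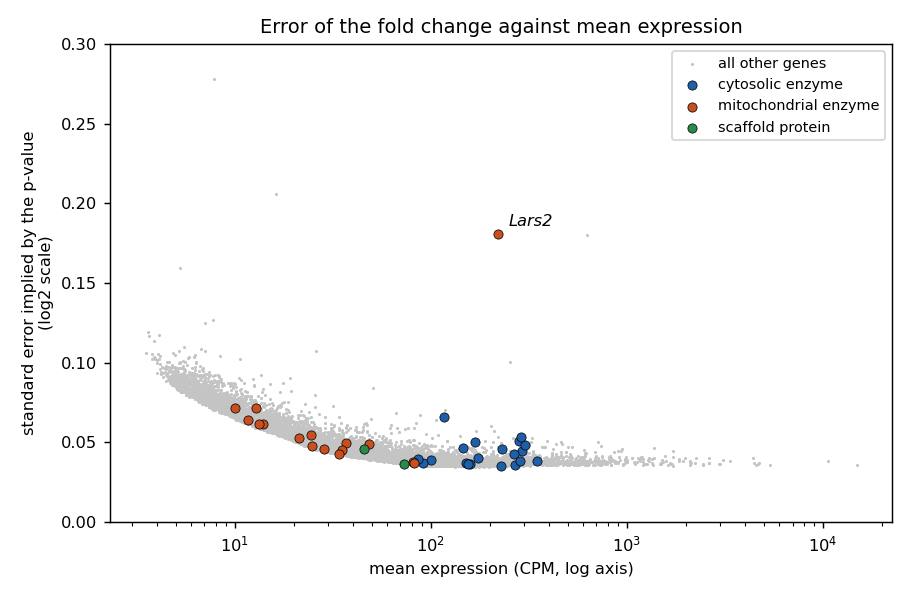
Standard error of the log2 fold change implied by the p-value (vertical axis) against mean CPM (log axis), for all genes in grey and the members in colour; 315 genes with a p-value of 0 or above 0.9 or an error above 0.3 are not drawn among the grey points. Lars2, at 0.18, stands apart from genes of its level, whose median was 0.037.

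The level of Lars2 also stood apart from the other mitochondrial enzymes. Divided by the length of the longest coding transcript, the mean level of the mitochondrial genes ran from 1.88 CPM per kilobase for Mars2 to 56.5 for Lars2, with a median of 10.3. Lars2 was 2.22 times the next, Tars2, at 25.5 CPM per kilobase. Of the 31-base words in its 3894-base transcript 42 occur in transcripts of other genes, 22 of them in the antisense gene Gm15564 and 26 in AA474408, between bases 3172 and 3329. The coding part ends at base 2905, so that stretch lies in the 3′ UTR. None of the words occurs in the mitochondrial ribosomal RNAs mt-Rnr1 or mt-Rnr2. The part of shared sequence in the value of Lars2 was not tested.

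Cytosolic enzyme genes were expressed above their mitochondrial partners. Per kilobase of transcript, the cytosolic genes had a median of 67.7 CPM and ran from 30.4 for Wars to 123 for Gars and Kars. In all 17 pairs of genes for the same amino acid the cytosolic gene had the higher level per kilobase, by a median of 5.40 times. The ratio ran from 1.18 for Lars over Lars2 to 34.2 for Nars over Nars2. The transcript lengths are those of the longest annotated form, which may not be the form expressed.

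The fold changes of partners shared a sign in some pairs and not in others. Of the 17 pairs, which cover 16 amino acids and hold Eprs and Fars2 in more than 1 pair, 10 had the same sign and 7 opposite signs. Several signs rest on a partner close to 0, among the same-sign pairs Lars at -0.02 beside Lars2 and Eprs at -0.01 beside Pars2. Several opposite signs do so as well. In the pairs of Eprs with Ears2, Farsa and Farsb with Fars2, Sars with Sars2 and Wars with Wars2, 1 partner lay between -0.02 and 0.01. Both partners were called for cysteine, threonine and tyrosine. For cysteine both fell, Cars at -0.25 and Cars2 at -0.17 in the authors' deposited table. For threonine both rose, Tars at 0.12 and Tars2 at 0.10 in the authors' deposited table. For tyrosine the partners went opposite ways, Yars at -0.25 and Yars2 at 0.12 in the authors' deposited table. The asparagine and arginine pairs were called for the cytosolic gene alone, and the glutamate, isoleucine, leucine and methionine pairs for the mitochondrial gene alone; 8 pairs had no call. The difference between partners was not tested.

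**Figure D4:**
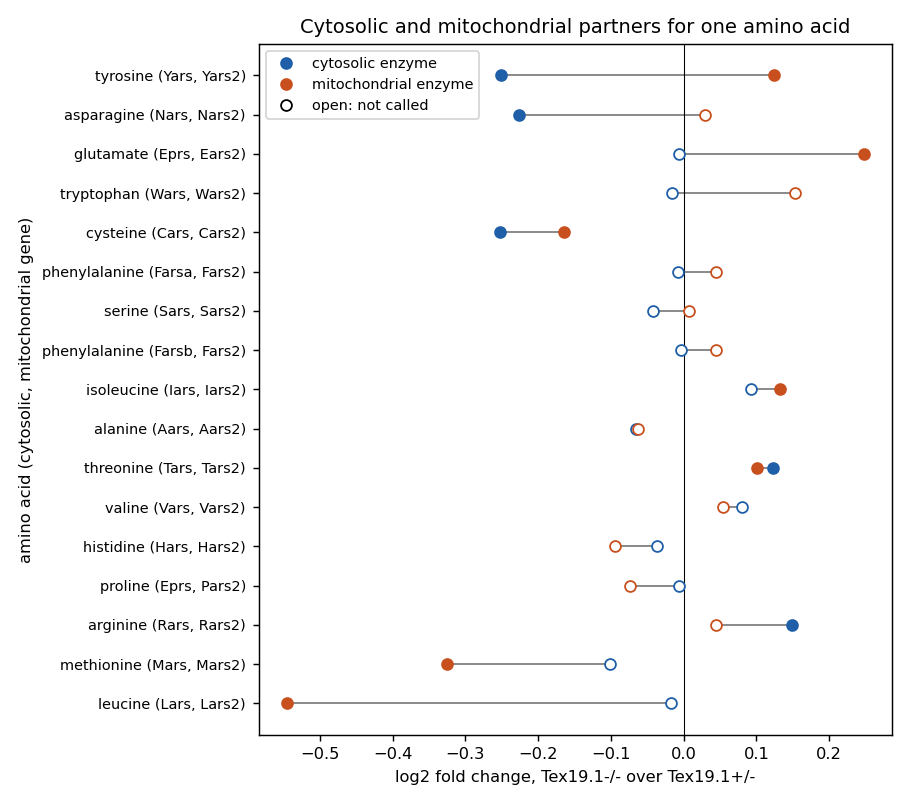
Log2 fold change of Tex19.1-/- over Tex19.1+/- cells (horizontal axis) for the cytosolic (blue) and mitochondrial (orange) gene of each amino acid (vertical axis), ordered by the difference; open points were not called. Tyrosine, at the top, has Yars at -0.25 and Yars2 at 0.12, and leucine, at the bottom, has Lars2 at -0.54.

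Against the spread of other genes the members' changes were small. When each fold change was set against the median and spread among the gene itself and the 300 others of nearest expression, in place of the authors' test, 629 of all genes passed, or 6.21%. Lars2 was the only member to pass (adjusted p = 6.65e-05), which is 2.63% of the 38, and 4 members, or 10.5%, had an unadjusted p under 0.05, against 13.3% of all genes. This comparison does not use the error of the gene itself, and the implied standard error of Lars2, 0.18, was the largest of the members. With Bonferroni adjustment 23.8% of all genes passed, and Yars, Mars2 and Aimp2 were the members that did. At an adjusted p under 0.01, 14 members and 41.3% of all genes were called. With the GC and length trend removed, 17 members and 50.3% of all genes were called.

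Of the genes of the amino acid response, those around ATF4 mostly fell, while amino acid synthesis enzymes and transporters moved in both directions. In the list of eIF2 kinases, their regulators and the transcription factors around ATF4, 9 of 15 measured genes fell and 2 rose, 73.3% in all against 51.7% of all genes, and the median on the log2 scale was -0.21 in the authors' deposited table. Atf4 was at -0.50 (adjusted p = 4.73e-20), Atf5 at -0.55, Atf3, a stress-induced factor, at -1.32 and the imprinted gene Impact, whose product restrains the kinase GCN2, at 1.12 in the authors' deposited table. Atf3 had a mean of 4.74 CPM, near the lowest mean of all genes, 3.52 CPM. Against the spread of genes of like expression Atf4 and Impact passed, while Atf3 and Atf5 did not (adjusted p = 0.153 and 0.201). Ddit3 and Cebpb were not among the genes listed. Amino acid synthesis enzymes split, 10 of 22 lower and 5 higher, 68.2% in all, and their median size of change of 0.13 on the log2 scale was near the 0.11 of all genes. The 4 with the smallest p-values were Shmt2, Cth, Mthfd2 and Shmt1. In the authors' deposited table the serine and folate enzymes Shmt2, Mthfd2 and Shmt1 were at -0.41, -0.55 and 0.27. The cysteine-forming enzyme Cth was at -0.39 there. The 7 not called included Asns at 0.04, Phgdh at 0.09, Psat1 at 0.02 and Pycr1 at -0.05 there, chosen after their values were seen. Of 15 amino acid transporter genes 5 fell and 4 rose, 60% in all, and the median size was likewise 0.13. Among them were the arginine and lysine carrier Slc7a1 at -0.96, Slc7a5, a carrier of large neutral amino acids, at -0.38, the glutamine carrier Slc1a5 at -0.38 and Slc38a4 at 0.32 in the authors' deposited table. These lists were written with results of these data known, and no list was tested.

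Among genes that act directly before and after tRNA charging, the elongation factor genes moved little. Of 10 genes listed with the elongation factors 3 rose and 2 fell, which is 50% against 51.7% of all genes. All 10 lay within 0.2 of 0. The list also holds the scaffold gene Eef1e1 and Gfm2, neither of them called. The share called is thus that of the list and not of elongation factors alone. Eef1d, part of the exchange factor of the cytosolic elongation factor, was at 0.16 in the authors' deposited table. Gfm1 and Eef1g, the former mitochondrial, were at 0.09 and Tufm, the mitochondrial factor that carries charged tRNA, at -0.09 there. The other fall was in Eef1a1, the cytosolic counterpart of Tufm, chosen after its value was seen, at -0.09 per the authors' deposited table. Of 13 measured genes that handle or proofread charged tRNA 2 rose and none was called lower, or 15.4%. These were Dtd1, a D-amino acid editing enzyme, at 0.22 and Secisbp2, which serves selenocysteine insertion, at 0.22 in the authors' deposited table; Dtd2 at 0.17 (adjusted p = 0.0500) and Gatb, a subunit of the mitochondrial amidotransferase that makes glutaminyl-tRNA, at -0.13 (adjusted p = 0.0515) did not pass. Of 30 genes of tRNA transcription and processing 12 rose and 5 fell, 56.7% in all, with a median of 0.05. That share is near the 51.7% of all genes, of which 25.2% were higher and 26.5% lower. The median size of change over the 30 genes, 0.11 on the log2 scale, was also near that of all genes, 0.11. The RNA polymerase III subunit gene Polr3d was at -0.53, Trnt1, which adds the CCA end to tRNAs, at 0.24 and the RNase P subunit gene Pop1 at 0.20 in the authors' deposited table.

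**Figure D5:**
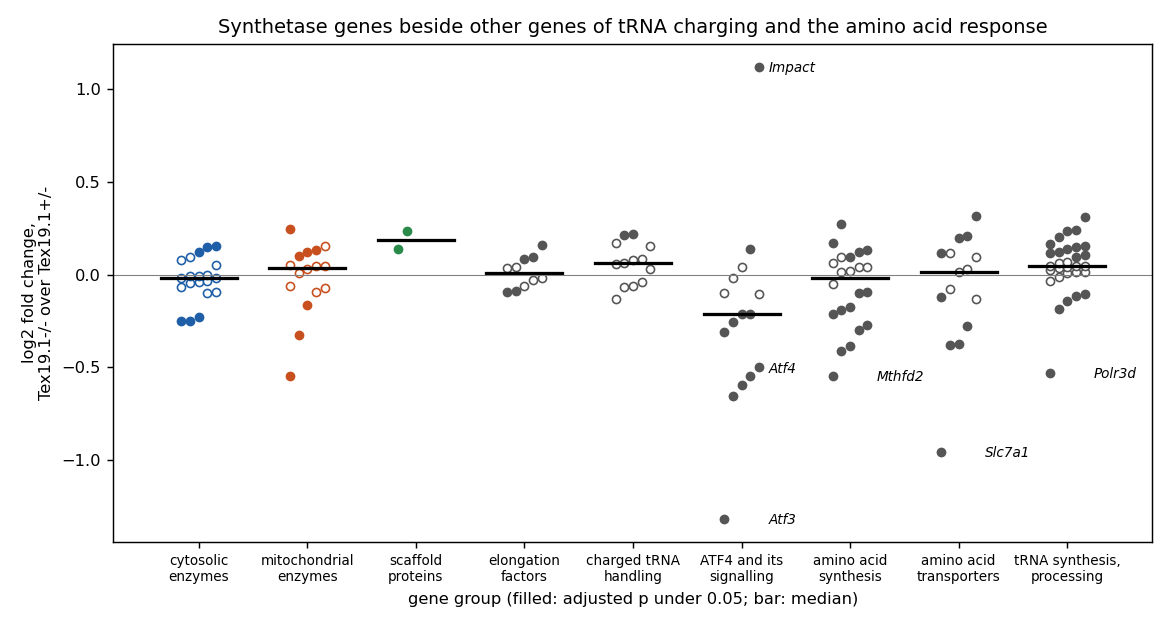
Log2 fold change of Tex19.1-/- over Tex19.1+/- cells (vertical axis) for the synthetase and scaffold genes and for 6 lists of related genes (horizontal axis); each point is a gene, filled where called, and bars are medians. The list around ATF4 has a median of -0.21, against -0.02 for the cytosolic and 0.04 for the mitochondrial enzymes.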

How the data were processed

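Cells were lysed in TRIzol and stranded libraries prepared from mRNA with an Illumina TruSeq kit, per the labels' protocols. Tools in the submitters' processing notes are edgeR, HTSeq 0.11.2, TopHat2 2.1.0 and Trim Galore 0.4.1, with the build mm10. For the model, the filter on low counts and the strand setting, the entry is: not given in the sources used here. Per the file headers, the authors deposited for each of 10128 genes a log2 fold change, a mean log2 CPM (lowest 1.82) and a p-value with its false discovery rate, which is an adjusted p-value. No value per library was used here, so depth is unknown and no standard deviation is given.

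Members were matched by symbol; members and lists were chosen with earlier results of these data known. Calls use the authors' adjusted p over all genes at 0.05. The implied standard error is the size of the log2 fold change divided by the normal quantile of the p-value; where p exceeded 0.9 (Farsb among the members) or was 0, the median of the 300 genes of nearest expression was used. Every member is given a value; from each of 6 other lists the 4 genes with the smallest p-value are named, and other genes were chosen after their values were seen. Positions, transcripts and lengths come from GENCODE M21 (GRCm38, the assembly of mm10) and promoters from RefSeq, matched by gene ID. Alternatives tried were a threshold of 0.01, Bonferroni adjustment, a minimum of 16 CPM, a test against the scaled median absolute deviation of genes of like expression, and removal of lowess trends (span 0.3) on GC content and length, for 9587 genes with a transcript. Scripts used Python 3.11.15 and statsmodels 0.14.6 and were tested on simulated data. A planned comparison of protein sequences was not run. A gene that the rule names and a sequence are not reported here.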

Additional observations from a re-analysis of the deposited data

How the results depend on the processing

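With Bonferroni adjustment 3 of the 38 synthetase and scaffold genes were called in place of 15, 1 of them cytosolic (in place of 6) and 1 mitochondrial (in place of 7), and 23 of the 105 other pathway genes in place of 59; the stricter adjustment over the same p-values makes fewer calls by construction. Against the spread of genes of like expression 1 member was called, with 0 of the cytosolic genes (2 at an unadjusted p under 0.05) and 1 of the mitochondrial, and 8 pathway genes; the member called was lower, where the main split was 9 higher and 6 lower, and the pathway calls were 1 higher and 7 lower in place of 28 and 31. An adjusted p under 0.01 (14 members called), genes of at least 16 CPM (14 of 33) and the removed GC and length trend (17) kept the counts of members and of both compartments within 1.5 times, as did leaving out Gars and Kars or sorting by the last character of the symbol. No member reversed its direction under these 5 settings while called. No paired analysis was possible because no value per library was used here, and fits without a replicate were not run for the same reason.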

Other observations

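The mitochondrial enzymes charge tRNAs for the 13 messages of the mitochondrial genome, all of which were listed; these genes were chosen after their values were seen. Of the 13, 5 fell and 8 were not called, so that 38.5% were called against 51.7% of all genes (26.5% lower), with a median of -0.06 on the log2 scale in the authors' deposited table, and none was called higher there. The falls were in the complex I subunit genes mt-Nd3 at -0.22 (adjusted p = 1.03e-08) and mt-Nd2 at -0.10 (adjusted p = 0.0110), the ATP synthase genes mt-Atp8 at -0.16 (adjusted p = 0.00024) and mt-Atp6 at -0.09 (adjusted p = 0.0257), and the cytochrome oxidase gene mt-Co3 at -0.13 (adjusted p = 0.00104), per the authors' deposited table. The largest value in size among the 13, that of mt-Nd6 at -0.43 (adjusted p = 0.189), was not called. Its mean was 7.89 CPM and its implied standard error 0.28. Of the mitochondrial ribosomal RNAs, the authors' deposited table lists mt-Rnr2 at 0.44 (adjusted p = 3.7e-17) and mt-Rnr1 at 0.01 (adjusted p = 0.886). The libraries were made for mRNA, so the ribosomal RNA values are those of RNA the kit is meant to leave out.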
